A study of Mus musculus with 9 samples.

Results

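The non-P450 phase I drug enzymes of mouse liver were examined as a set of 39 genes out of the 27945 genes with a count in at least 1 library. Members were every gene of the carboxylesterase families Ces1 to Ces5, the flavin monooxygenases Fmo1 to Fmo6, the aldehyde oxidases Aox1 to Aox4, the aldo-keto reductase subfamilies Akr1a, Akr1b and Akr1c, and Akr7a5, chosen by gene symbol in the deposited expression table. They comprised 17 carboxylesterases, 5 flavin monooxygenases, 3 aldehyde oxidases and 14 aldo-keto reductases. Ces2f, Ces5a, Fmo6 and Aox4 had 0 counts in all 9 libraries and are not members. After the filter on low counts 37 members were tested among 18113 genes, and the other 2, Ces1h and Aox2, are given as counts only.

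The 9 libraries hold polyadenylated liver RNA of mice, with 3 labelled control, 3 model and 3 treated. The series concerns liver damage by gefitinib, an inhibitor of the epidermal growth factor receptor kinase, and the comparisons made were model with control, treated with model and treated with control. The labels give no strain, sex, age, dose, time or genotype, and they do not state which agent or agents the model and treated groups received. Nothing says that the 3 libraries of 1 group are separate mice. The p-values therefore describe variation among libraries, which may be technical.

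Phase I enzymes act on a drug or metabolite before it is conjugated. Carboxylesterases are serine hydrolases of the endoplasmic reticulum that split ester, thioester and amide bonds, in prodrugs as well as in cellular lipids. Flavin monooxygenases use NADPH and oxygen to oxidise soft nucleophiles such as nitrogen and sulfur atoms. Aldehyde oxidases are cytosolic enzymes with a molybdenum cofactor that oxidise aldehydes and nitrogen heterocycles, and aldo-keto reductases use NADPH to reduce aldehydes and ketones, steroids among them. The liver is the main site of expression for many of these enzymes.

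Library totals were 56440871 to 60665156 estimated counts, and 20579 to 21441 genes had a count in each. Scaling factors from the trimmed mean of M-values (TMM) were 0.905 to 0.998 in control and model libraries and 1.05 to 1.14 in treated ones. The 4 Y-linked genes examined lay at 14.6 to 64.5 CPM, counts scaled to library size, in all libraries and Xist at 0 to 1.74 CPM. Summed CPM of 11 hepatocyte markers was 93020 to 106100 in control, 93150 to 97300 in model and 73320 to 90230 in treated libraries. In treated against control 5 of the 11 were lower and 0 higher. Most of the sum was Alb, which was not called (mean 58490 CPM in control and 49870 in treated). Of the others not called, mean Tat went from 571 to 1494 CPM and mean Hnf4a from 637 to 653 CPM, while Apoa1, Cps1 and Fgb had lower means. In treated against model Hnf4a was higher and Serpina1c lower. Summed levels of 10 endothelial markers were 346 to 431, 149 to 173 and 86.5 to 135 CPM, with 7 of 10 lower in model than in control and 10 of 10 lower in treated than in control. Those of 10 macrophage markers were 171 to 267, 226 to 335 and 709 to 884 CPM, with 4 of 10 higher in treated than in control, Gpnmb, Lyz2, Cd68 and Marco. From control to treated, mean Gpnmb went from 1.56 to 254 CPM and mean Lyz2 from 24.6 to 261 CPM. Adgre1, Clec4f, Vsig4, Csf1r, Timd4 and Cd163 were not called. Of these, Timd4 (7.9 to 5.9 CPM) and Cd163 (11.1 to 2.68 CPM) had lower means in treated than in control. Summed levels of 8 stellate cell and fibroblast markers were 187 to 261, 141 to 179 and 343 to 403 CPM. Col1a1 and Col3a1 were higher and Lrat lower in treated than in control. From control to treated, mean Col1a1 went from 5.6 to 55.6 CPM, mean Col3a1 from 31.9 to 146.7 CPM and mean Lrat from 10.6 to 4.2 CPM. The rest were not called, Dcn and Reln with lower means and Des, Pdgfrb and Acta2 with higher means in treated than in control. Neutrophil markers, 6 in all, summed to 3.28 to 5.88, 12.2 to 25.8 and 10.8 to 123 CPM, with Csf3r and S100a8 higher in treated than in control, and Ly6g, Mpo and Retnlg at 0 in at least 1 library. None of the endothelial, macrophage, stellate cell and fibroblast markers was at 0 in any library. Summed levels of 7 skeletal muscle markers stood at 119 to 181 CPM in the treated libraries and in model replicate 1. The other 5 libraries were at 0.697 to 1.38 CPM, and there Acta1, Ckm, Myh4, Tnnt3 and Myl1 were at 0 in at least 1 library. The part of these markers in the differences below was not tested. In bulk liver RNA, fewer cells of a type and less RNA per cell cannot be told apart.

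Among all 37 tested members, none was called in model against control by edgeR's quasi-likelihood test at an adjusted p under 0.05, where 1.12% of all tested genes were called. At an unadjusted p under 0.05 there were 7 of the 37 members, beside 2526 of the 18113 tested genes. DESeq2 called 3 members, Ces2c, Akr1a1 and Akr1c19, all higher in model, and 871 of all genes. Groups did not overlap for 5 members, 4 higher and 1 lower in model, or 13.5% of members against 20.0% of all tested genes. Against model, 3 members were lower in treated livers, Ces3b, Fmo4 and Akr7a5, and 0 were higher. That is 8.11% of members against 9.65% of all genes, of which 4.44% were lower and 5.21% higher, so the share of members called lay near the background. Groups did not overlap for 12 members, 32.4% against 31.2% of all genes.

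Treated against control gave 8 calls, the most of the 3 comparisons, which share their groups of libraries. Ces1e, Ces1f, Ces2a, Ces3a, Ces3b and Akr7a5 were lower and Ces2c and Akr1a1 were higher, which is 21.6% of members against 17.8% of all tested genes, with 8.47% of all genes lower and 9.36% higher. Groups did not overlap for 18 members, 48.6% against 37.3% of all genes. The median log2 fold change of the 37 members was -0.03 in treated against control, beside -0.01 over all tested genes. The median was -0.12 in treated against model and -0.03 in model against control, beside 0.01 and -0.00 over all genes.

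The direction of these counts depended on scaling. On library totals without TMM scaling, the median log2 fold change of all tested genes became 0.20 in treated against control and 0.17 in treated against model, and 78.7% and 80.1% of all called genes were higher, instead of 52.5% and 54.0%. Members called in treated against control were then 7 higher and 4 lower, and in treated against model 2 higher and 1 lower. The share of all genes called on library totals is not given, so these counts are read for direction only. Of the 8 members called in treated against control with TMM scaling, 6 were also called without it, the exceptions being Ces1f and Akr7a5. Fold changes below use TMM scaling unless another scale is named, and so are relative to the middle of all genes.

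**Figure D1:**
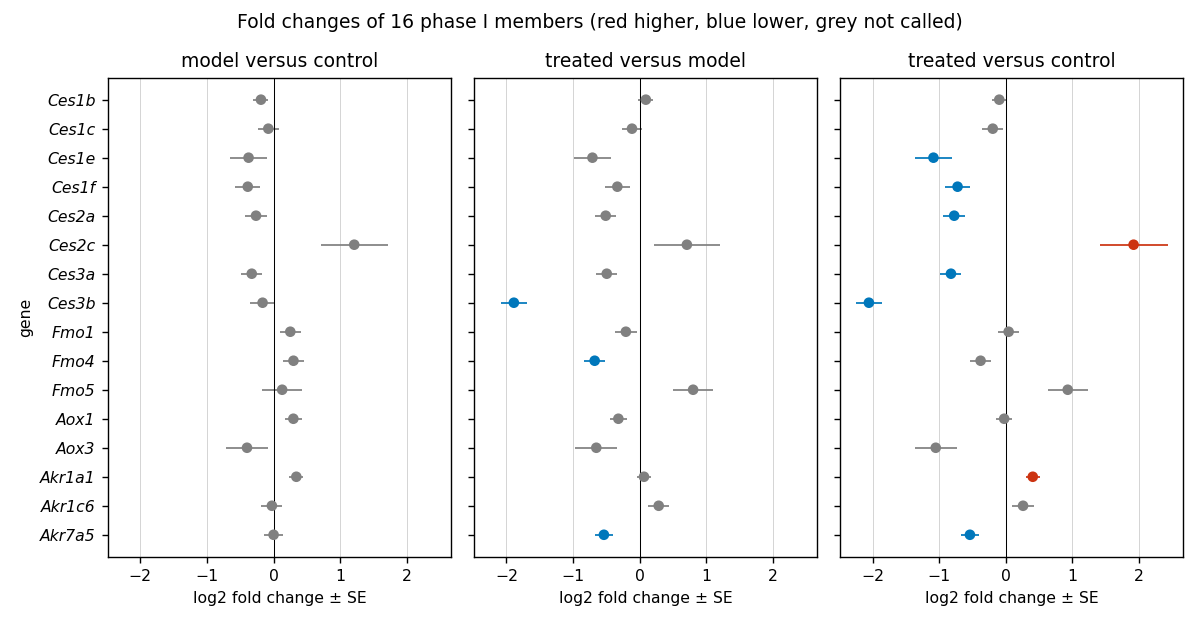
Log2 fold changes (x axis) of the 16 tested members described by replicate, listed on the y axis, in the 3 comparisons. Points are edgeR estimates and bars their standard errors, red and blue mark members called higher and lower at an adjusted p under 0.05, and grey marks members not called. No member is coloured in model against control, 3 are blue in treated against model, and 6 are blue and 2 red in treated against control.

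The carboxylesterases were the family with the most calls. In treated against control, 5 of 16 tested were lower and 1 was higher, or 37.5% called beside 17.8% of all tested genes (8.47% lower and 9.36% higher). The family median log2 fold change was -0.52, beside -0.01 over all tested genes. Groups did not overlap for 9 of 16 genes, 56.3% beside 37.3% of all tested genes. On library totals, Ces1f was no longer called, and Ces2e and Ces2g were called as higher in addition. In treated against model 1 of 16 was called, Ces3b, beside 9.65% of all tested genes, and in model against control none was, beside 1.12%. There, 2 of 16 had an unadjusted p under 0.05, beside 2526 of all 18113 tested genes. Of this family DESeq2 called Ces2c alone in model against control, and it called 871 of all genes. The genes lie in 2 clusters on chromosome 8 of GRCm38, one of 8 Ces1 genes at chr8:93020214-93379725 and one of 9 Ces2, Ces3 and Ces4a genes at chr8:104734003-105150109. Members that rose and members that fell stood in the second of these.

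Promoters, from 250 bases before to 50 bases after the start, are shown for 3 genes of that second cluster, because Ces3b fell most among the members called, Ces2a fell as well, and Ces2c rose. All 3 are on the forward strand, are taken from RefSeq on GRCm38.p6, and hold the start of the transcript with the most counts (Ces3b chr8:105083505-105083804, Ces2a chr8:104733753-104734052, Ces2c chr8:104846818-104847117). Capitals mark matches to 5 short motifs searched on both strands, and all other letters are lower case.
Ces3b: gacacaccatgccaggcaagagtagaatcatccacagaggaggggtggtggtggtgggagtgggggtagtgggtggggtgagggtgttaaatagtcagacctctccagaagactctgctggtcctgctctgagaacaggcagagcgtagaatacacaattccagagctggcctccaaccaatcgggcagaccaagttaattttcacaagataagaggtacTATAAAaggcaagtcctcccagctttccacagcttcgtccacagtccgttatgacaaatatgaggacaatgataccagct
Ces2a: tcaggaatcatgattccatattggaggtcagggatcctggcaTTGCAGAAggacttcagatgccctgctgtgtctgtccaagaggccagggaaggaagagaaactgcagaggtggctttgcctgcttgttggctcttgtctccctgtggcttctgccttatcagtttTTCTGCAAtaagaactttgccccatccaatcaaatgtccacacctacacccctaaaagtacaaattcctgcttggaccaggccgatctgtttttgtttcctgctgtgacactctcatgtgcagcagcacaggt
Ces2c: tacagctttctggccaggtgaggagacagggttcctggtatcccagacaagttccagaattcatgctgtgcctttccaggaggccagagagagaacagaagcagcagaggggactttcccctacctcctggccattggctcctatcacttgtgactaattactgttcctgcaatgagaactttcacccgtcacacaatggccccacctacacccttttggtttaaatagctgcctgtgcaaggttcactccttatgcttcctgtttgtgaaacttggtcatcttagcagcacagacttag
The motifs were the hexamer TATAAA, TTNNGCAA (a C/EBP type), CAAAGTNCA (an HNF4 type), GTTAATNAT (an HNF1 type) and TGACNNNGC (antioxidant response element core), where N is any base. TATAAA stood at -30 from the start in Ces3b, TTNNGCAA stood at -208 on the reverse and -83 on the forward strand in Ces2a, and Ces2c held no match. Of the 31 members with a promoter in the RefSeq table, 6 held TATAAA, 6 held TTNNGCAA and 1, Akr1c19, held TGACNNNGC. These are 19.4%, 19.4% and 3.23%, beside 13.6%, 10.8% and 12.4% of 32851 promoters of the same length. Some of the 31 promoters lie far from the start of the transcript with the most counts, that of Akr1c14 by 10580 bases, Akr1c19 by 5040 and Fmo4 by 1123. CAAAGTNCA and GTTAATNAT were in 0 of the 31 and in 1.41% and 0.801% of all promoters. A match is a stretch of letters and is not shown to be a bound site.

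Ces3b, a hydrolase of the liver endoplasmic reticulum (chr8:105083753-105093929, forward strand), showed the clearest difference. Its level was 839, 565 and 632 CPM in control replicates 1, 2 and 3. Model replicates were at 661, 599 and 555 CPM, and treated replicates at 119, 179 and 192 CPM. All 3 treated libraries lay below every control and model library, while control and model overlapped. Ces3b was 3.70-fold lower in treated than in model (log2 fold change -1.89, SE 0.20, adjusted p = 4.416e-04) and 4.15-fold lower than in control (log2 fold change -2.05, SE 0.20, adjusted p = 1.096e-04). Model and control differed by a log2 fold change of -0.17 (SE 0.19, adjusted p = 0.790). The 13-exon transcript that starts at the promoter shown carried 94.0% to 96.3% of the Ces3b counts in every library. Both calls against treated livers held in all 20 alternative analyses.

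Ces3a, its neighbour in the cluster (chr8:105048601-105058413), is the carboxylesterase with the highest FPKM, fragments scaled to transcript length and library size, in control libraries. It stood at 2986, 2719 and 2335 CPM in control, 2388, 1839 and 2177 CPM in model and 1227, 1657 and 1661 CPM in treated replicates 1 to 3. Treated libraries again lay below all control and model libraries. Ces3a was 1.77-fold lower in treated than in control (log2 fold change -0.82, SE 0.16, adjusted p = 0.00485), and this call held in all 20 alternatives. In treated against model the log2 fold change was -0.49 (SE 0.16, adjusted p = 0.0741), and DESeq2 called it (adjusted p = 0.0209).

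Within each library, the ratio of Ces3b to Ces3a counts does not depend on library scaling. It was 0.281, 0.208 and 0.270 in control, 0.277, 0.326 and 0.255 in model and 0.0969, 0.108 and 0.116 in treated replicates 1 to 3. The mean ratio was 0.253 ± 0.0396 in control, 0.286 ± 0.0364 in model and 0.107 ± 0.00945 in treated libraries (SD, n = 3). Ces3b thus took a smaller share of the pair's counts in each treated library than in any other library. This ratio and 2 others below were chosen after the values were seen and are given as a description. The pair share 177 exact windows of 100 bases between their main transcripts, 7.68% of the windows of Ces3b and 9.09% of those of Ces3a, so a small part of their reads cannot be assigned by sequence. Ces3a also overlaps the antisense gene Gm45724 over 420 bases.

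Ces2a, an esterase of the second cluster (chr8:104734003-104741634), was measured at 348, 396 and 335 CPM in control and 227, 307 and 364 CPM in model replicates. Treated replicates were at 199.8, 201 and 230.3 CPM, lower than every control library and overlapping model replicate 1. Ces2a was 1.71-fold lower in treated than in control (log2 fold change -0.77, SE 0.16, adjusted p = 0.00748), a call that held in all 20 alternatives. Treated against model gave a log2 fold change of -0.51 (SE 0.16, adjusted p = 0.0716), which passed the threshold with DESeq2 (adjusted p = 0.0212) and without model replicate 1 (0.0213). Its main transcript shares 10.8% of its 100-base windows with the related gene Gm7208.

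Ces2c, a paralog of Ces2a in the same cluster (chr8:104847068-104854483), had low levels of 12.4, 8.58 and 3.60 CPM in control. Model replicates were at 18.1, 10.04 and 28.7 CPM and treated replicates at 26.3, 34.9 and 31.8 CPM. Treated libraries lay above all control libraries and overlapped the highest model library. Ces2c was 3.78-fold higher in treated than in control (log2 fold change 1.92, SE 0.51, adjusted p = 0.0400). The call was lost in 8 of 20 alternatives, among them those without control replicate 2 (adjusted p = 0.117), control replicate 3 (0.0561), model replicate 1 (0.0632), treated replicate 1 (0.0847), treated replicate 2 (0.0975) or treated replicate 3 (0.10). Of its 100-base windows, 16.0% are shared, mostly with the pseudogene Ces2d-ps, so its level is uncertain to that extent.

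The ratio of Ces2c to Ces2a counts was 0.0357, 0.0216 and 0.0107 in control, 0.0799, 0.0327 and 0.0789 in model and 0.132, 0.174 and 0.138 in treated libraries. Each treated library had a higher ratio than every other library. The remaining Ces2 genes did not pass the test in any comparison. Ces2e ranged from 91.3 to 156 CPM and Ces2g from 19.4 to 36.0 CPM over the 9 libraries. Ces2h had at most 35 counts in a library and Ces2b at most 13, with 0 in all 3 control libraries.

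**Figure D2:**
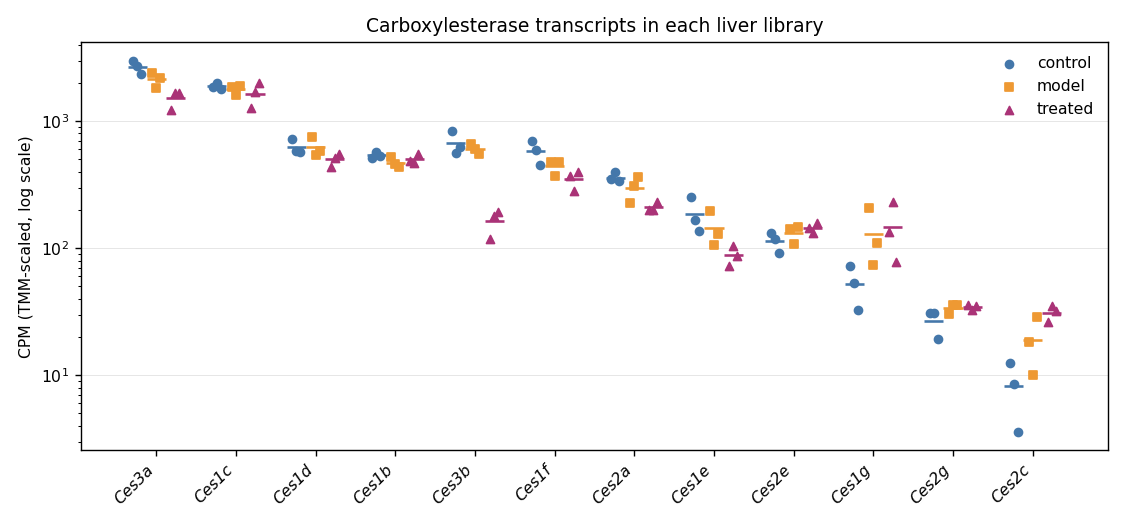
TMM-scaled CPM on a log axis (y) of the 12 carboxylesterases with at least 1 CPM in every library (x). Symbols are single libraries, circles control, squares model and triangles treated, and bars are group means of 3. The treated triangles of Ces3b lie at 119 to 192 CPM, below all squares and circles, and those of Ces2c at 26.3 to 34.9 CPM, above all circles.

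Of the first cluster, Ces1f and Ces1e fell. Ces1f, a triacylglycerol hydrolase of the hepatocyte (chr8:93256236-93279747), stood at 695, 589 and 450 CPM in control, 479, 369 and 477 CPM in model and 370, 280 and 400 CPM in treated replicates. Every treated library was below every control library and the model libraries overlapped both groups. It was 1.65-fold lower in treated than in control (log2 fold change -0.72, SE 0.19, adjusted p = 0.0212). That call was lost in 6 of 20 alternatives, 3 of which set aside TMM scaling, and the others left out control replicate 1 (adjusted p = 0.0755), control replicate 2 (0.0597) or treated replicate 2 (0.0708).

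Ces1e, known as egasyn, which holds beta-glucuronidase in the endoplasmic reticulum (chr8:93201218-93229619), was at 253, 168 and 138 CPM in control. It was at 195, 106 and 129 CPM in model and 72.5, 104 and 86.6 CPM in treated replicates. The treated libraries did not overlap the other groups, though treated replicate 2 lay close to model replicate 2. Ces1e was 2.12-fold lower in treated than in control (log2 fold change -1.09, SE 0.28, adjusted p = 0.0292), and 7 of 20 alternatives lost the call. Libraries whose removal did so were control replicate 1 (adjusted p = 0.0658), control replicate 2 (0.0609), treated replicate 1 (0.108) and treated replicate 3 (0.0916). Its counts were split mainly between 2 coding transcripts, and the one with more counts over all libraries held 46.3% to 89.4% of them depending on the library. That transcript had 6556, 4035 and 6596 unscaled counts in control and 4077, 5474 and 4652 in treated replicates, which overlap. The other had 7422, 4601 and 730 in control and 826, 1269 and 813 in treated replicates. The fall of the gene thus rests in part on the second transcript in control replicates 1 and 2.

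The other abundant members of the first cluster were not called. Ces1c, the secreted esterase of mouse plasma, was at 1874, 1996 and 1802 CPM in control, 1864, 1600 and 1903 CPM in model and 1267, 1689 and 1997 CPM in treated replicates. Its groups overlapped, and the log2 fold change in treated against control was -0.20 (SE 0.16, adjusted p = 0.447), or 0.0049 without TMM scaling. Ces1b was at 510, 572 and 534 CPM in control, 519, 459 and 439 CPM in model and 489, 470 and 551 CPM in treated replicates. Its log2 fold change in treated against control was -0.10 (SE 0.11, adjusted p = 0.614), or 0.11 without TMM scaling.

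Ces1g, an esterase that hydrolyses triacylglycerol, is an instance of groups that did not overlap without a call. Control libraries ranged from 32.4 to 72.2 CPM, model libraries from 73.4 to 206 CPM and treated libraries from 78.1 to 229.6 CPM. The log2 fold change was 1.49 (SE 0.55, adjusted p = 0.114) in treated against control and 1.30 (SE 0.55, adjusted p = 0.358) in model against control. Ces1d, the hepatic triacylglycerol hydrolase, ranged from 437 to 746 CPM with a log2 fold change of -0.32 in treated against control (adjusted p = 0.175). Ces1a had at most 50 counts in a library, Ces1h had 19 and 18 counts in treated replicates 1 and 2 and 0 elsewhere, and Ces4a ranged from 0.0587 to 4.70 CPM.

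Per length, summed carboxylesterase FPKM was 2595 ± 295 in control, 2366 ± 172 in model and 2116 ± 227 in treated libraries (SD, n = 3), without TMM scaling. Ces3a made up 31.5% to 33.4% of that sum in control, 28.4% to 30.0% in model and 25.2% to 27.8% in treated libraries. Ces3b made up 6.99% to 9.61%, 7.69% to 9.50% and 2.50% to 3.07% of it. Ces1c, by contrast, made up 23.7% to 27.5% in control and 29.4% to 35.0% in treated libraries. The order of the leading pair by mean FPKM was therefore Ces3a before Ces1c in control and model, and Ces1c before Ces3a in treated livers, at 684 ± 130 and 556 ± 75.7 FPKM. Within libraries, Ces3a was above Ces1c in every control and model library and below it in every treated library. The gap was small in model replicates 2 (617 against 607 FPKM) and 3 (717 against 709 FPKM).

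**Figure D3:**
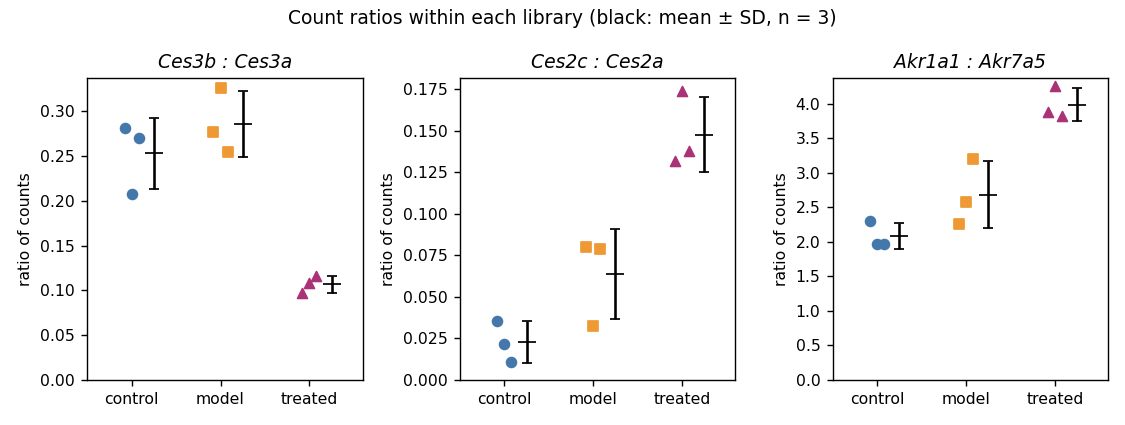
Ratio of counts (y axes, from 0) of 3 gene pairs within each library, by group (x axes), with the mean ± SD of 3 libraries in black. Treated libraries lie at 0.0969 to 0.116 for Ces3b to Ces3a, 0.132 to 0.174 for Ces2c to Ces2a and 3.82 to 4.25 for Akr1a1 to Akr7a5, apart from all other libraries in each panel.

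Among the 5 flavin monooxygenases, Fmo4 fell in treated against model, 1 of 5 called beside 9.65% of all tested genes, and no other call was made. Fmo4 lies at chr1:162793188-162813972, Fmo1 and Fmo2 lie beside it, and Fmo5 is at chr3:97628804-97655282. Fmo4, a low-abundance member, was at 15.5, 13.8 and 17.0 CPM in control, 17.3, 21.6 and 17.9 CPM in model and 9.83, 12.1 and 13.7 CPM in treated replicates. Treated libraries lay below all others and model libraries above all others. The log2 fold change was -0.68 in treated against model (SE 0.16, adjusted p = 0.0222) and -0.38 in treated against control (SE 0.16, adjusted p = 0.122). The call in treated against model was lost in 7 of 20 alternatives, 3 of them without TMM scaling (log2 fold change -0.52, adjusted p = 0.0605 on library totals). The other 4 left out model replicate 2 (adjusted p = 0.0755), model replicate 3 (0.0509), treated replicate 1 (0.0771) or treated replicate 2 (0.0559).

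Fmo5, which oxidises ketones in Baeyer-Villiger reactions, was the most abundant of the family per length. It was at 263, 461 and 513 CPM in control, 533, 394 and 424 CPM in model and 567, 693 and 1096 CPM in treated replicates. The treated libraries lay above all others, although treated replicate 1 was close to model replicate 1. The difference did not pass the test, with a log2 fold change of 0.93 in treated against control (SE 0.30, adjusted p = 0.0622) and 0.80 in treated against model (SE 0.30, adjusted p = 0.137). It passed in treated against control with DESeq2 (adjusted p = 0.00390), on library totals (0.0167), on both FPKM scales (0.0163 and 0.0161) and without treated replicate 1 (0.0490). Against model, it passed with DESeq2 (adjusted p = 0.0227) and on library totals (0.0497). Its counts were divided among 3 coding transcripts, and the one with most counts held 34.8% to 91.3% of them depending on the library.

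Fmo1 was at 181, 199.9 and 203 CPM in control, 275, 206 and 213 CPM in model and 168, 248 and 185 CPM in treated replicates. Model libraries lay just above control libraries, with a log2 fold change of 0.25 (SE 0.16, adjusted p = 0.549), and treated libraries overlapped both. Fmo2 ranged from 6.51 to 26.3 CPM without a call.

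In FPKM, Fmo5 contributed 56.7% to 67.7% of the summed family level in control, 62.5% to 65.0% in model and 73.5% to 84.1% in treated libraries. The sum was 93.0 ± 21.7, 106 ± 11.9 and 169 ± 43.1 FPKM (SD, n = 3). This sum carries no TMM scaling.

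The aldehyde oxidases gave no call in any comparison. Their 3 genes are clustered at chr1:58029931-58380259. Aox3, the main aldehyde oxidase of mouse liver, was at 749.7, 746 and 354 CPM in control, 454, 384 and 564 CPM in model and 203, 346 and 343 CPM in treated replicates. Each treated library was lower than every control and model library, by little in the case of control replicate 3. The log2 fold change was -1.05 in treated against control (SE 0.32, adjusted p = 0.0531) and -0.65 in treated against model (SE 0.32, adjusted p = 0.254). Without control replicate 3 it was -1.33 in treated against control and passed (adjusted p = 0.00631), and it also passed with DESeq2 (0.00176), with a filter on mean CPM (0.0438) and without robust dispersions (0.0397).

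Aox1 was at 139, 141 and 122 CPM in control, 167, 137 and 189 CPM in model and 137, 130 and 128 CPM in treated replicates. Its treated and control libraries overlapped, and the log2 fold change between them was -0.02 (SE 0.12, adjusted p = 0.931), or 0.19 without TMM scaling. In treated against model it was -0.32 (SE 0.12, adjusted p = 0.141), which passed without model replicate 2 (adjusted p = 0.0477). Aox2 had 0 to 16 counts in each library and was not tested. Aox3 held 64.7% to 86.9% of the summed aldehyde oxidase FPKM over the 9 libraries. Of 5 genes that make or fit the molybdenum cofactor, 1 was lower in treated than in control, beside 8.47% of all tested genes. It was Mocs1, of the first step of cofactor synthesis (log2 fold change -0.47, SE 0.14, adjusted p = 0.0464). None of the 5 was called in the other 2 comparisons.

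Of the 14 aldo-keto reductases, Akr1a1 was higher in treated than in control and Akr7a5 was lower in treated than in both other groups. Both are on chromosome 4, at chr4:116636510-116651680 and chr4:139310744-139318426. In treated against control 14.3% of the family was called, beside 17.8% of all tested genes. In treated against model it was 7.14%, beside 9.65%. Akr1a1, the aldehyde reductase that also serves ascorbate synthesis in mice, was at 321, 323 and 292 CPM in control, 414, 365 and 406 CPM in model and 431, 416 and 392 CPM in treated replicates. Control libraries lay below all model and treated libraries, which overlapped each other. Akr1a1 was 1.32-fold higher in treated than in control (log2 fold change 0.41, SE 0.10, adjusted p = 0.0202). The call was lost without control replicate 3 (adjusted p = 0.0678) and without treated replicate 1 (0.0647). In model against control the log2 fold change was 0.34 (SE 0.10, adjusted p = 0.156), and DESeq2 called it (adjusted p = 0.0127).

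Akr7a5, which reduces aflatoxin dialdehyde and succinic semialdehyde, was at 139.8, 164 and 148 CPM in control. It was at 184, 142 and 127 CPM in model and 111, 97.9 and 102 CPM in treated replicates. The treated libraries lay below all 6 others, while control and model overlapped. The log2 fold change was -0.54 both in treated against model (SE 0.14, adjusted p = 0.0340) and in treated against control (SE 0.14, adjusted p = 0.0212). Without TMM scaling these became -0.37 (adjusted p = 0.106) and -0.32 (adjusted p = 0.11), and neither was called. Against model the call was also lost without model replicate 1 (adjusted p = 0.117), model replicate 2 (0.0529), treated replicate 1 (0.0628), treated replicate 2 (0.10) or treated replicate 3 (0.0945). Against control it was lost without control replicate 2 (adjusted p = 0.0776), treated replicate 2 (0.0688) or treated replicate 3 (0.0632).

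The ratio of Akr1a1 to Akr7a5 counts was 2.29, 1.97 and 1.97 in control, 2.26, 2.58 and 3.20 in model and 3.88, 4.25 and 3.82 in treated replicates. Treated libraries lay above all others, and control and model overlapped at their edge. Neither member shares an exact 100-base window with another gene.

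The Akr1c genes, hydroxysteroid dehydrogenases for the most part, form a cluster of 8 at chr13:4049011-4586541, and none was called by edgeR's test. Akr1c6, a 17-beta-hydroxysteroid dehydrogenase and the family's most abundant member per length, was at 1045, 957 and 707 CPM in control, 959, 765 and 936 CPM in model and 976, 1195 and 1070 CPM in treated replicates. All treated libraries were above all model libraries and overlapped control. The log2 fold change was 0.29 in treated against model (SE 0.16, adjusted p = 0.309) and 0.26 in treated against control (SE 0.16, adjusted p = 0.301). On library totals the second was 0.46 and was called (adjusted p = 0.0492), as it was on log2(FPKM + 0.1) (adjusted p = 0.0495).

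The other Akr1c genes included Akr1c14, the 3-alpha-hydroxysteroid dehydrogenase, at 118 to 247 CPM, with treated libraries below control libraries and a log2 fold change of -0.58 (SE 0.20, adjusted p = 0.0674). Akr1c19, at 30.7 to 71.3 CPM, had a log2 fold change of 0.72 in model against control (SE 0.24, adjusted p = 0.222), and DESeq2 called it higher there. It overlaps Marcksl1-ps4 on the same strand over 291 bases and shares 192 windows with it. Its transcript with the most counts held 36.1% to 68.6% of them depending on the library. Akr1c12 and Akr1c13, which share 134 windows, ranged from 55.2 to 73.3 CPM and from 54.9 to 73.8 CPM, and Akr1c20 from 43.4 to 71.9 CPM. Akr1c18, the 20-alpha-hydroxysteroid dehydrogenase, and Akr1c21 stayed at or below 1.06 and 1.61 CPM.

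The Akr1b cluster of 4 genes at chr6:34302434-34423142 was expressed at low levels, from 0.519 CPM for Akr1b7 to 17.2 CPM for Akr1b3, the aldose reductase. Akr1b8 was at 2.58 to 3.04 CPM in control, 1.48 to 1.96 CPM in model and 2.29 to 3.15 CPM in treated libraries. Its model libraries were below all others, with a log2 fold change of -0.76 in model against control (SE 0.26, adjusted p = 0.224) and 0.72 in treated against model (SE 0.26, adjusted p = 0.118). The level of Akr1b3 is uncertain, since 50.6% of its 100-base windows occur in pseudogenes.

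Summed aldo-keto reductase FPKM was 701 ± 99.7 in control, 735 ± 59.0 in model and 896 ± 55.1 in treated libraries (SD, n = 3), without TMM scaling. With it, the median log2 fold change of the 14 genes in treated against control was 0.33, beside -0.01 over all tested genes, and 9 of 14 were above 0.

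**Figure D4:**
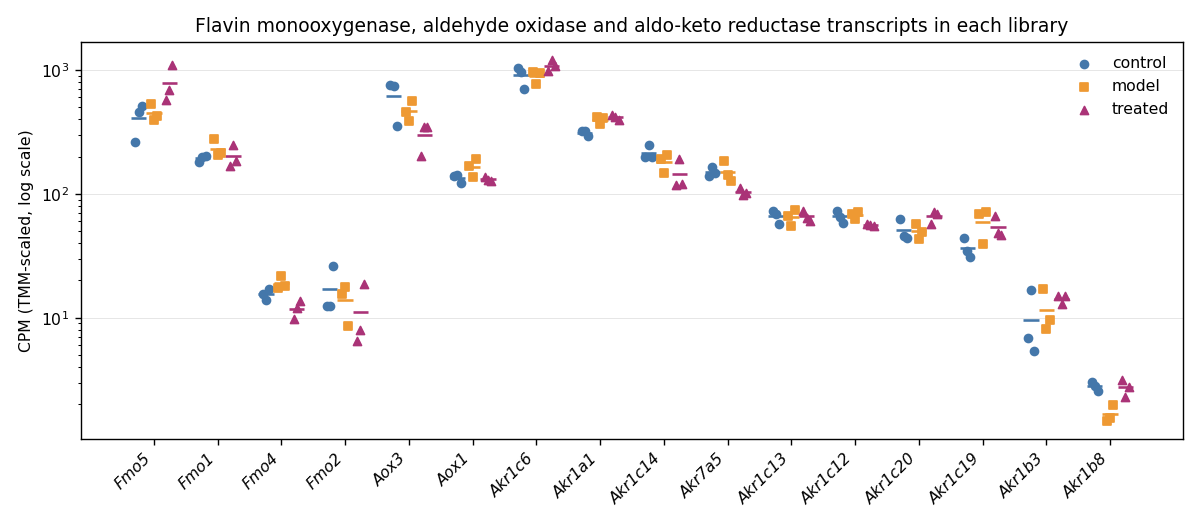
TMM-scaled CPM on a log axis (y) of the 16 flavin monooxygenases, aldehyde oxidases and aldo-keto reductases with at least 1 CPM in every library (x), by family and mean level. Circles are control, squares model and triangles treated libraries, and bars are means of 3. Triangles of Akr7a5 and Fmo4 lie below all other symbols of the gene, and the circles of Akr1a1 lie below its squares and triangles.

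Other non-P450 enzymes of phase I changed in both directions. Of 32 such genes, 7 were higher and 9 lower in treated than in control (median log2 fold change -0.11), beside 9.36% and 8.47% of all tested genes. In treated against model 2 were higher and 5 lower (median -0.29), beside 5.21% and 4.44% of all tested genes. In model against control 1 was called, beside 1.12% of all tested genes. It was the microsomal epoxide hydrolase Ephx1, at 375 to 513 CPM in control and 653 to 693 CPM in model libraries (log2 fold change 0.66, SE 0.13, adjusted p = 0.0391). Nqo1, a quinone reductase, was at 2.88 to 3.51 CPM in control, 4.13 to 7.49 CPM in model and 13.8 to 27.3 CPM in treated libraries. It rose 5.97-fold in treated against control (adjusted p = 3.056e-04) and 3.08-fold in treated against model (adjusted p = 0.00642). Ephx2, the soluble epoxide hydrolase, fell from 844 to 984 CPM in control to 292 to 445 CPM in treated libraries (log2 fold change -1.32, SE 0.16, adjusted p = 3.403e-04). Dpyd, which breaks down pyrimidines, fell by 1.01 on the log2 scale in treated against control (SE 0.13, adjusted p = 6.224e-04).

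Among 12 regulators of phase I genes, 1 was higher and 4 were lower in treated than in control (median log2 fold change -0.15), beside 9.36% and 8.47% of all tested genes. In treated against model 2 were higher and 3 lower, beside 5.21% and 4.44% of all tested genes, and in model against control none was called. Cebpa, a hepatocyte transcription factor, was at 262 to 281 CPM in control, 288 to 382 CPM in model and 104 to 139.6 CPM in treated libraries. It fell by 1.34 on the log2 scale against model (SE 0.15, adjusted p = 5.206e-04) and by 1.09 against control (SE 0.15, adjusted p = 6.936e-04). Ahr, the aryl hydrocarbon receptor, rose by 1.26 on the log2 scale against model (SE 0.14, adjusted p = 5.319e-04) and by 0.68 against control (SE 0.14, adjusted p = 0.00673). Nr1i3, the constitutive androstane receptor, fell by 1.02 on the log2 scale in treated against control (SE 0.17, adjusted p = 0.00200), and Nr1h4, the bile acid receptor, fell by 0.58 in treated against model (SE 0.13, adjusted p = 0.0167). Whether these regulators have a part in the members' levels was not tested.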

How the data were processed

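Liver RNA of 9 mouse libraries, 3 per group by their labels, was analysed from the deposited tables. The submitters' processing notes name HISAT2, with no version. The quantifier, annotation and strand setting were not given in the sources used. The authors deposited whole-number counts and FPKM, each per gene and per transcript, and the counts are treated here as estimated counts. How reads of overlapping genes and close paralogs were divided was not given. Coordinates are those of the files, on GRCm38.

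Gene counts went into edgeR 4.0.16 (R 4.3.3), as 1 quasi-likelihood fit over all 9 libraries with robust dispersions, TMM scaling and filterByExpr (minimum count 10, minimum total 15), which kept 18113 genes. The call threshold was an adjusted p under 0.05 (Benjamini-Hochberg, over all tested genes). CPM use TMM-scaled totals. The alternatives were DESeq2 1.42.0, limma 3.58.1 (voom, and trend on log2 of the deposited FPKM plus 0.1 or 1), other scaling and filters, a replicate block, fits of 6 libraries and leaving out each library, 20 in all. Shared windows were exact 100-base matches between GENCODE M21 transcripts. Promoters came from the RefSeq table.

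Replicates and comparisons followed the labels, and no pair within a group was a duplicate, with a median chi-square per gene of 7.64 to 11.2. Members called in any comparison, and the 3 members of each family with the highest mean FPKM, are given by replicate. Each other list is given by its counts and the 3 called genes with the smallest p, with further genes named for some cell type markers. The values of 1 member are not reported here. Members and lists were chosen with earlier results of these data known. Counts were simulated for the 6 libraries of each comparison and fitted alone, so recovery in the fit of all 9 libraries was not measured. In model against control (17065 genes), 39 of 100 planted 2-fold and 72 of 100 planted 4-fold changes were recovered, with 8 false calls. In treated against model (17394 genes) these were 40, 73 and 13, and in treated against control (17328 genes) 32, 70 and 7.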

Additional observations from a re-analysis of the deposited data

How the results depend on the processing

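Over 20 alternatives, the calls of Ces3b in both comparisons with treated livers, and of Ces3a and Ces2a in treated against control, held throughout, and other calls were lost in 2 to 10 of them. DESeq2 called more members in each comparison, with 3 in model against control, 8 in treated against model and 14 in treated against control. It also called more of all genes in model against control and in treated against model, as given below. Its total over all genes in treated against control is not given. Leaving out 1 library gave 1 to 3 members in treated against model, beside 882 to 1660 of all genes, with the fewest members without treated replicate 2. In treated against control it gave 5 to 9 members, beside 2169 to 2996 of all genes. The fewest members there came without control replicate 2 or treated replicate 3. The replicate block gave 0 members in model against control, beside 120 of all genes. It lost Ces2c in treated against control and Akr7a5 in treated against model, and added no member in either. Same-number correlations of deviations from the group means ran from -0.11 to 0.11. In 2 of 9 matches of a library to the 3 libraries of another group, the closest had the same number. No pairing by replicate number was seen, though these values cannot exclude one. Among all genes tested, 202 were called in model against control, with 871 by DESeq2, 120 with the block, 119 on log2(FPKM + 1) and 54 to 213 without 1 library. In treated against model there were 1748, with 2742 by DESeq2 and 882 to 1660 without 1 library.

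Log2 fold changes that reversed were all of members not called in that comparison. On library totals, log2(FPKM + 0.1) and log2(FPKM + 1) respectively, these were Akr1c6 in model against control at 0.0124, 0.0326 and 0.0325, Akr7a5 in model against control at 0.0412, 0.0307 and 0.0305, and Ces1c in treated against model at 0.0431, 0.0405 and 0.0405. In treated against control they were Ces1b at 0.11, 0.12 and 0.12, Ces1c at 0.0049, 0.0041 and 0.0041, and Aox1 at 0.19, 0.20 and 0.19. Akr7a5 in model against control was also at 0.0054 with DESeq2 and with RLE factors, and at 0.0006 with no filter. Without 1 library, values crossed 0 in model against control for Ces1c (-0.13 to 0.0036), Ces3b (-0.28 to 0.0164), Fmo5 (-0.11 to 0.32), Akr1c6 (-0.18 to 0.0922) and Akr7a5 (-0.17 to 0.11). They also did so for Ces1c in treated against model (-0.27 to 0.0433), and for Fmo1 (-0.14 to 0.16) and Aox1 (-0.0881 to 0.0130) in treated against control. The cause was not tested.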
